A study of Drosophila melanogaster with 6 samples.

Results

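The genes of glycogen and trehalose metabolism were followed in Drosophila indirect flight muscles in which the Hox protein Antp was maintained. They are 7 of the 17611 genes in the count table, taken by their symbols: GlyP, UGP, GlyS, AGBE, Treh, Tret1-1 and Tps1. RNA was prepared from flight muscles dissected by hand at 72 hours after puparium formation (APF) from pupae staged at 25°C, with the muscles of 6 to 8 pupae in each sample. The first group carried Act88F-Gal4 with UAS-Antp (genotype given as Act88F-Gal4;UAS-Antpnls) and the control group carried Act88F-Gal4 with UAS-GFP (Act88F-Gal4;UAS-GFPnls), and 3 libraries were sequenced for each. The Act88F-Gal4 driver is shared by both groups. It is specific to flight muscle and acts late, after the time at which endogenous Antp is normally cleared. The labels call the 3 samples of a genotype independent, whereas the methods describe technical replicates for RNA-seq, so P values here measure the spread among these libraries, which may be technical.

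Insect muscle burns sugar that it stores and sugar that it takes up. The store is glycogen, a branched glucose polymer that is built from UDP-glucose by glycogen synthase and branching enzyme and taken apart by glycogen phosphorylase. The supply is trehalose, the main sugar of insect blood, which is made largely in the fat body, carried across membranes by trehalose transporters and split into glucose by trehalase. Flight muscle of flies is known for its high capacity to use both.

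Total counts ran from 63217976 to 77781458 with UAS-Antp and from 47460809 to 64485309 with UAS-GFP. The UAS-Antp libraries are numbered 1, 2 and 3 here as in the count table, whose numbers are not those of the labels. Antp itself had 716673, 1092524 and 517985 counts in the UAS-Antp libraries and 70, 33 and 66 counts in the UAS-GFP libraries. Levels are given as CPM (counts scaled to a common library size) after TMM scaling, which takes most genes as unchanged. At an adjusted P under 0.05 by edgeR, 5807 of the 9546 tested genes passed, so this premise may not hold here. The TMM factors ran from 1.53 to 1.6 with UAS-Antp and from 0.609 to 0.674 with UAS-GFP. Over the 9546 tested genes the median log2 fold change, with UAS-GFP as the denominator, was 0.17 with TMM and 1.48 when libraries were scaled by their totals alone, so directions of small changes depend on this choice.

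All 7 genes passed the filter on low counts. With UAS-Antp 4 of them were lower (GlyP, Tret1-1, UGP and Treh), 0 were higher and 3 did not pass (AGBE, GlyS and Tps1), by edgeR's quasi-likelihood test with an adjusted P under 0.001 over all tested genes. Of all tested genes, 35.6% passed in either direction and 19.3% were lower. The libraries of the 2 genotypes did not overlap for 6 of the 7 genes, all with UAS-Antp lower, against 68.3% of all tested genes in either direction and 30.6% with UAS-Antp lower. The median log2 fold change of the 7 genes was -1.48.

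**Figure D1:**
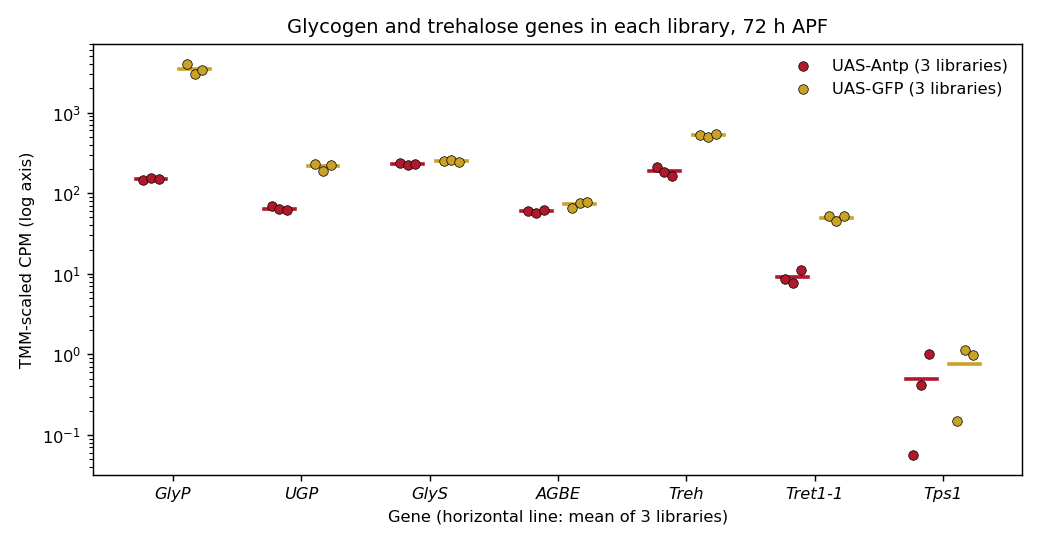
TMM-scaled CPM of the 7 genes in each library on a log axis, with UAS-Antp left of UAS-GFP and a line at the mean of 3 libraries. GlyP shows the widest gap, with 144 to 152 CPM with UAS-Antp and 3046 to 4052 CPM with UAS-GFP, GlyS and AGBE lie close together in both genotypes, and Tps1 overlaps.

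GlyP (FBgn0004507) encodes glycogen phosphorylase, which releases glucose-1-phosphate from the ends of the glycogen chains. In dm6 it spans 2130813 to 2137296 of chromosome 2L, plus strand. GlyP had 15380, 18952 and 15321 counts in the UAS-Antp libraries, against 161769, 97359 and 122626 counts in the UAS-GFP libraries. In CPM this was 144, 152 and 152 with UAS-Antp and 4052, 3046 and 3369 with UAS-GFP. Every UAS-Antp library was far below every control library, and the UAS-Antp libraries hardly differed among themselves.

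The mean GlyP level was 149 ± 4.59 CPM with UAS-Antp and 3489 ± 514 CPM with UAS-GFP (SD, n = 3 each), 23.4-fold lower with UAS-Antp. On the log2 scale this was a change of -4.55 with a standard error of 0.14 (edgeR, adjusted P = 4.97e-09). A value below that of GlyP was found for 0.995% of the tested genes. As a plain share of the library, without composition scaling, GlyP averaged 236 ppm with UAS-Antp and 2200 ppm with UAS-GFP. When libraries were scaled by totals the log2 fold change was -3.23. GlyP passed in all 17 alternatives tried, which include a looser threshold that a gene passing here cannot fail.

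Of the enzymes that build glycogen, UGP fell, while GlyS and AGBE did not pass. UGP (FBgn0035978) makes UDP-glucose, the glucose donor of glycogen synthase and of many other pathways, and spans 9350867 to 9358935 of chromosome 3L (minus strand). Its levels were 69.0, 62.9 and 61.6 CPM in the UAS-Antp libraries, against 232, 187 and 225 CPM in the UAS-GFP libraries. The groups were well apart, with 64.5 ± 3.92 CPM with UAS-Antp and 215 ± 24.3 CPM with UAS-GFP (SD, n = 3 each).

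UGP fell by 1.74 on the log2 scale, with a standard error of 0.12 (edgeR, adjusted P = 5.24e-07). Scaled by library totals the value was -0.41, with an adjusted P of 0.00355 that no longer passed. Less the median over tested genes it was -1.91 with TMM and -1.89 with library totals. A change of scaling moves all genes nearly alike, so such values must be close, here and for the genes below, and add no support. The exons of UGP share 602 bases with PGRP-LF and 42 bases with CG32040 on the opposite strand, and reads were counted by strand.

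GlyS (FBgn0266064) encodes glycogen synthase, which adds glucose to the growing chain, and spans 15141843 to 15147531 of chromosome 3R (minus strand). It had 234, 221 and 231 CPM in the UAS-Antp libraries, against 250, 255 and 244 CPM in the UAS-GFP libraries. The UAS-Antp values all lay below the controls, but by little. The log2 fold change was -0.13, with a 95% confidence interval from -0.33 to 0.08, and did not pass (edgeR, adjusted P = 0.265). Its counts were 25005, 27573 and 23328 with UAS-Antp and 9971, 8159 and 8880 with UAS-GFP. Scaled by library totals GlyS was therefore higher with UAS-Antp, with a log2 fold change of 1.19 (adjusted P = 1.66e-06), while with the median over tested genes subtracted it lay at -0.30 with TMM and -0.29 with library totals.

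AGBE (FBgn0053138) encodes the branching enzyme, which moves stretches of chain to side branches, and spans 13171401 to 13174796 of chromosome 2R (plus strand). Its levels were 60.7, 56.9 and 62.4 CPM with UAS-Antp and 65.6, 75.7 and 78.1 CPM with UAS-GFP. The groups did not overlap, yet the nearest libraries were only a few CPM apart. The log2 fold change was -0.29, with a 95% confidence interval from -0.53 to -0.05, and it missed the threshold (adjusted P = 0.0412). With library totals it was 1.03 (adjusted P = 1.43e-05), so that, like GlyS, its direction depended on the scaling, and less the median over tested genes it was -0.46 with TMM and -0.45 with library totals.

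Of the genes that take up and split trehalose, both that were measured at a clear level fell. Tret1-1 (FBgn0050035) encodes a trehalose transporter of the cell membrane and spans 11665768 to 11674782 of chromosome 2R (plus strand). It had 8.50, 7.61 and 11.0 CPM with UAS-Antp, against 51.8, 44.7 and 51.5 CPM with UAS-GFP. All UAS-Antp libraries were below all controls, and UAS-Antp library 3 was the highest of its group.

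The Tret1-1 mean was 9.03 ± 1.75 CPM with UAS-Antp and 49.3 ± 4.03 CPM with UAS-GFP (SD, n = 3 each), 5.46-fold lower with UAS-Antp. On the log2 scale it fell by 2.45, with a standard error of 0.16 (edgeR, adjusted P = 3.73e-07). Scaled by library totals Tret1-1 was at -1.13 (adjusted P = 9.18e-05). Its neighbouring paralog Tret1-2 had 94, 28 and 10 counts with UAS-Antp and 4, 3 and 13 counts with UAS-GFP and did not pass (adjusted P = 0.367). The count table is of uniquely mapping reads, and reads that match both paralogs would be missing from both.

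Treh (FBgn0003748) encodes trehalase, which splits trehalose into glucose, and spans 21074018 to 21088945 of chromosome 2R (plus strand). Its levels were 214, 182 and 165 CPM with UAS-Antp and 530, 502 and 538 CPM with UAS-GFP. The groups were apart, at 187 ± 24.7 CPM with UAS-Antp and 524 ± 18.8 CPM with UAS-GFP (SD, n = 3 each). Treh fell by 1.48 on the log2 scale, with a standard error of 0.12 (edgeR, adjusted P = 1.88e-06), and with library totals the value was -0.17 (adjusted P = 0.175). Less the median over tested genes it was -1.65 under both scalings. Its raw counts overlapped, at 22892, 22734 and 16724 with UAS-Antp and 21164, 16056 and 19588 with UAS-GFP. On the opposite strand 560 of its exon bases are shared with Rbpn-5.

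Tps1 (FBgn0027560) encodes trehalose-6-phosphate synthase, the enzyme that starts trehalose synthesis in the fat body, and spans 4388327 to 4392778 of chromosome 2L (plus strand). It was low, with 6, 52 and 103 counts in the UAS-Antp libraries and 6, 36 and 36 counts in the UAS-GFP libraries. Libraries of both genotypes ranged widely and overlapped. Its log2 fold change was -0.60, with a 95% confidence interval from -2.84 to 1.65 (edgeR, adjusted P = 0.634), so that no change was seen beyond the spread between libraries. Counts of the 8 fat body markers ran from 112 (Apoltp, UAS-GFP library 1) to 23976 (Lsp2, UAS-Antp library 2). Their summed level ran from 372 to 581 CPM with UAS-Antp and from 311 to 577 CPM with UAS-GFP. None of the 8 passed the test by edgeR, and their part in the Tps1 counts was not tested.

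**Figure D2:**
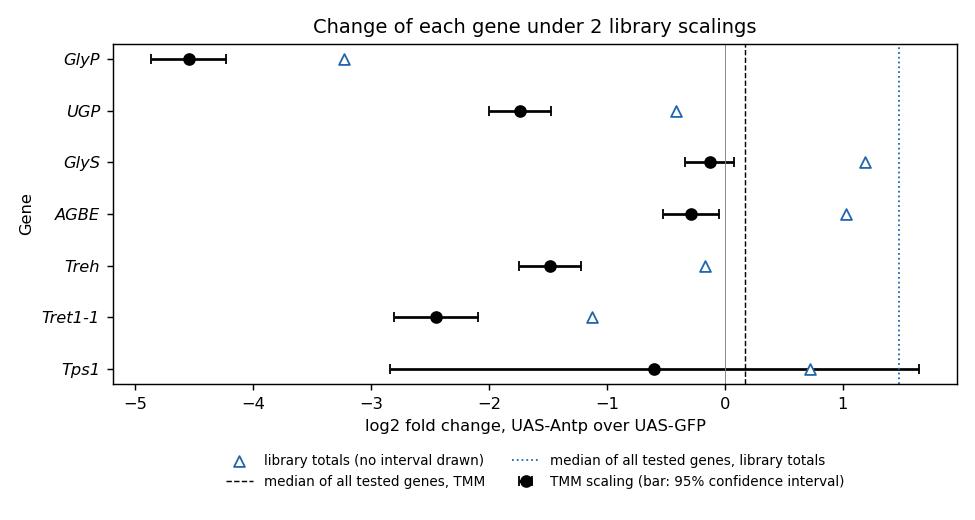
Log2 ratio of UAS-Antp to UAS-GFP for each gene with TMM scaling (circles, bars for the 95% confidence interval) and with library totals (triangles), beside the median of all tested genes under each scaling. GlyP lies at -4.55 and -3.23, whereas GlyS and AGBE lie on opposite sides of 0 under the 2 scalings and below the median of all genes in both.

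Because the scaling decides the direction of the smaller changes, the genes were also compared with each other inside each library, where scaling cancels. For every GlyS count there were 0.615, 0.687 and 0.657 GlyP counts in the UAS-Antp libraries, against 16.2, 11.9 and 13.8 in the UAS-GFP libraries. The transcript of glycogen breakdown was thus many times more counted than that of synthesis in control muscles and less counted with UAS-Antp. The difference in log2 ratio was -4.41 (exact two-sided permutation P = 0.1, the smallest that 3 against 3 libraries allow, and 0.167 after Benjamini-Hochberg adjustment over 5 ratios).

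UGP per GlyS count was 0.295, 0.284 and 0.267 with UAS-Antp and 0.928, 0.732 and 0.924 with UAS-GFP, a difference of -1.60 in log2 ratio (exact permutation P = 0.1). AGBE per GlyS count was 0.260, 0.257 and 0.271 with UAS-Antp and 0.263, 0.296 and 0.320 with UAS-GFP. These values overlapped, and the difference of -0.16 was not separated (exact permutation P = 0.2). Across all 6 libraries the ratio of branching enzyme to synthase lay between 0.257 and 0.320.

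Tret1-1 per Treh count was 0.0397, 0.0417 and 0.0664 with UAS-Antp, against 0.0977, 0.0889 and 0.0957 with UAS-GFP. The transporter was lower relative to the enzyme in every UAS-Antp library, by a difference of -0.97 in log2 ratio (exact permutation P = 0.1). The ratio of Treh to Tps1 rested on the few Tps1 counts and overlapped (difference -0.55, exact permutation P = 0.7).

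**Figure D3:**
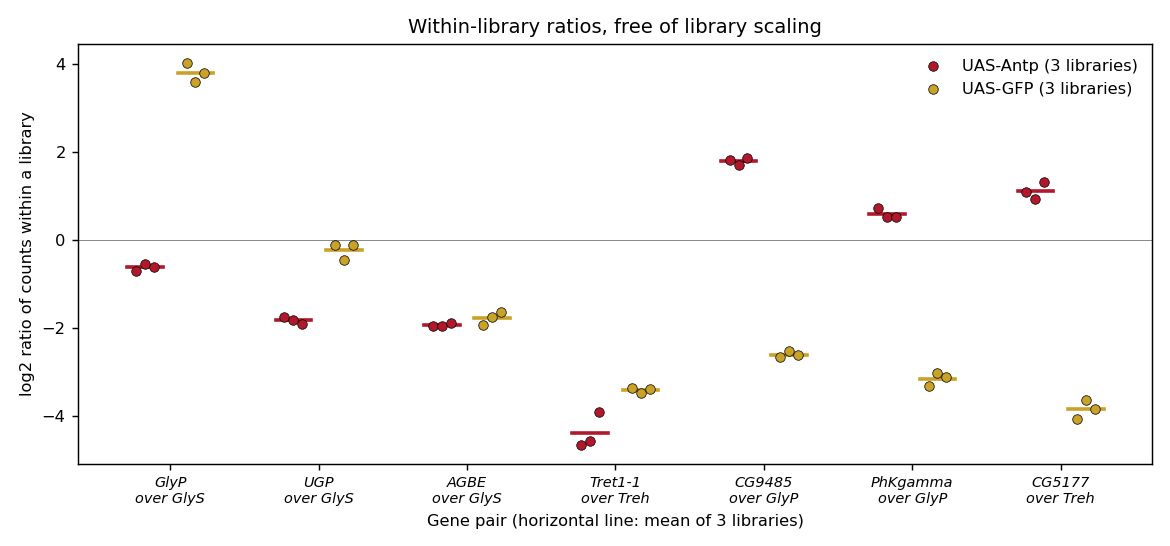
Log2 ratio of the counts of gene pairs within each library, UAS-Antp left of UAS-GFP, with a line at the mean of 3 libraries. GlyP over GlyS averaged -0.62 with UAS-Antp and 3.79 with UAS-GFP, and CG9485 over GlyP 1.79 with UAS-Antp and -2.61 with UAS-GFP, while AGBE over GlyS overlaps between the genotypes. The ratios with CG9485, PhKgamma and CG5177 were chosen after the values were seen.

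Compared per kilobase of exon, the order of the genes differed between the genotypes. With UAS-Antp GlyS was the highest at 68.5 ± 1.98 CPM per kb, followed by GlyP at 47.4 ± 1.45 and Treh at 42.9 ± 5.66, whose libraries overlapped with those of GlyP (SD, n = 3 each). AGBE at 25.8, UGP at 21.4, Tret1-1 at 2.68 and Tps1 at 0.17 CPM per kb followed without overlap between neighbours. With UAS-GFP GlyP was the highest at 1110 ± 163 CPM per kb, ahead of Treh at 120.0 ± 4.31, GlyS at 74.7 ± 1.68 and UGP at 71.3 ± 8.03 (SD, n = 3 each), of which GlyS and UGP overlapped. AGBE at 31.5, Tret1-1 at 14.6 and Tps1 at 0.259 CPM per kb came last. Among the tested genes GlyP ranked 846 by this level with UAS-Antp and 131 with UAS-GFP, and GlyS ranked 637 with UAS-Antp and 915 with UAS-GFP.

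In glycogen breakdown 3 of 5 genes fell, 0 rose and 2 did not pass, beside 19.3% lower and 16.3% higher among all tested genes. The median log2 fold change of the 5 was -0.8, and GlyP had the lowest value. CG9485, which encodes the debranching enzyme that works beside the phosphorylase, had 506, 493 and 550 CPM with UAS-Antp and 637, 526 and 550 CPM with UAS-GFP, which overlapped (log2 fold change -0.15, adjusted P = 0.279). PhKgamma, the catalytic subunit of the kinase that activates phosphorylase, fell by 0.80 on the log2 scale (adjusted P = 5.05e-05), and CG8475, a regulatory subunit of that kinase, by 1.19 (adjusted P = 3.17e-06). CG7766, another regulatory subunit, was at -0.43 and did not pass by edgeR (adjusted P = 0.00389), but passed by the Wald test of DESeq2, at -0.50 (adjusted P = 3.16e-05). With library totals CG7766 and PhKgamma passed as higher by edgeR, at 0.89 and 0.52 (adjusted P = 1.5e-05 and 0.000516). CG9485 did too, at 1.17 (adjusted P = 2.54e-06), and CG8475 was at 0.13 and did not pass.

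Set against these partners inside each library, in ratios chosen after the values were seen, the gap was wide. There were 3.51, 3.24 and 3.63 CG9485 counts per GlyP count with UAS-Antp, against 0.157, 0.173 and 0.163 with UAS-GFP. For PhKgamma the ratios were 1.65, 1.43 and 1.43 with UAS-Antp and 0.101, 0.123 and 0.115 with UAS-GFP. For both, the difference in log2 ratio, 4.40 and 3.74, was many times the spread between libraries (exact permutation P = 0.1 for each, and 0.114 after adjustment over 8 ratios).

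In glycogen synthesis 3 of 5 genes fell, 0 rose and 2 did not pass, beside 19.3% lower and 16.3% higher among all tested genes. The median log2 fold change of the 5 was -1.74, below that of the breakdown list. Besides UGP, those that fell were Gyg, the glycogenin that primes a new chain, and Pgm1, which converts glucose-6-phosphate to glucose-1-phosphate. Gyg had 12748, 14303 and 9032 counts with UAS-Antp and 52541, 30473 and 37985 counts with UAS-GFP, a log2 fold change of -3.36 (adjusted P = 5.73e-08) that was -2.04 with library totals, and part of its exon bases belong to another gene on the same strand as well. Pgm1 was at -1.94 (adjusted P = 1.02e-07), and at -0.62 with library totals. GlyS and AGBE were the 2 that did not pass.

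Among 4 regulators of glycogen enzymes 1 rose and 2 fell, beside 16.3% higher and 19.3% lower among all tested genes. Pka-C1, the catalytic subunit of protein kinase A, had 131978, 127526 and 97914 counts with UAS-Antp and 9992, 6372 and 8521 counts with UAS-GFP. It rose with a log2 fold change of 2.24 (adjusted P = 2.31e-07). Of the others, sgg, the fly glycogen synthase kinase, fell by 2.29 on the log2 scale (adjusted P = 1.83e-07, with exon bases shared with another gene), and Gbs-76A, a subunit that targets protein phosphatase to glycogen, fell by 1.00 (adjusted P = 4.65e-05). Gbs-70E, of the same family, was at 0.06 (adjusted P = 0.754). With library totals Pka-C1 was at 3.56, sgg at -0.97, Gbs-70E at 1.38 and Gbs-76A at 0.32, and Gbs-76A did not pass.

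The trehalose list moved in both directions, with 2 rises and 1 fall among 4 tested genes. Of all tested genes, 16.3% were higher and 19.3% lower. The rises were CG5177 and CG5171, neighbouring genes of the trehalose phosphatase family. CG5177 had 48821, 43128 and 41534 counts with UAS-Antp, against 1262, 1290 and 1357 counts with UAS-GFP. This is an 11.1-fold higher level in CPM, and 3.47 on the log2 scale, with a standard error of 0.15 (edgeR, adjusted P = 2.46e-08), which was 4.78 with library totals. CG5171 had 605, 933 and 500 counts with UAS-Antp and 47, 28 and 59 counts with UAS-GFP, a log2 fold change of 2.29 (edgeR, adjusted P = 8.32e-05), which limma-voom did not call (2.31, adjusted P = 0.0014). For every Treh count there were 2.13, 1.90 and 2.48 CG5177 counts with UAS-Antp and 0.0596, 0.0803 and 0.0693 with UAS-GFP, a ratio chosen after the values were seen. CG6262 of the same list was not tested, with at most 7 counts in a library.

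Sugar transporters other than Tret1-1 did not pass by edgeR. Glut1, a glucose transporter, had 281, 390 and 212 counts with UAS-Antp and 26, 28 and 32 counts with UAS-GFP, and its log2 fold change of 1.71 missed the threshold (adjusted P = 0.00196). It passed by the Wald test of DESeq2, at 1.64 (adjusted P = 0.000245), and with library totals, at 3.02. The transporter sut1 was at -0.14 (adjusted P = 0.778), and sut2, sut3, sut4 and Glut3 were too low to be tested.

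Of the genes for the entry of hexoses into metabolism, 4 of 4 tested were lower, against 19.3% of all tested genes. Their median was -1.55, beside 0.17 for all tested genes. The 4 genes were the hexokinase Hex-A at -2.16 (adjusted P = 9.21e-07), Pgm1, the phosphoglucose isomerase Pgi at -1.15 and Pgm2a at -0.86. With library totals Hex-A and Pgm1 stayed lower, at -0.85 and -0.62, whereas Pgi and Pgm2a were at 0.16 and 0.46. The hexokinases Hex-C, Hex-t1 and Hex-t2 and the gene Pgm2b were not tested, with at most 36 counts in a library.

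Of 7 sensors of sugar and energy, 1 rose and 3 fell, beside 16.3% higher and 19.3% lower among all tested genes. Mondo, a transcription factor that responds to sugar, rose by 0.83 on the log2 scale (adjusted P = 0.000164) and passed in 2 of the 6 fits that each left out 1 library. Its partner bigmax was at 0.04 (adjusted P = 0.872), and sug and AkhR, the receptor of adipokinetic hormone, did not pass (adjusted P = 0.051 and 0.335). The subunits of the energy sensor AMPK were lower, alc at -1.06, SNF4Agamma at -0.58 and AMPKalpha at -0.54 on the log2 scale. In the leave-one-out fits alc passed in 6 of 6, SNF4Agamma in 1 and AMPKalpha in 0. With library totals alc was at 0.26 and did not pass, while SNF4Agamma and AMPKalpha passed as higher, at 0.73 and 0.78.

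**Figure D4:**
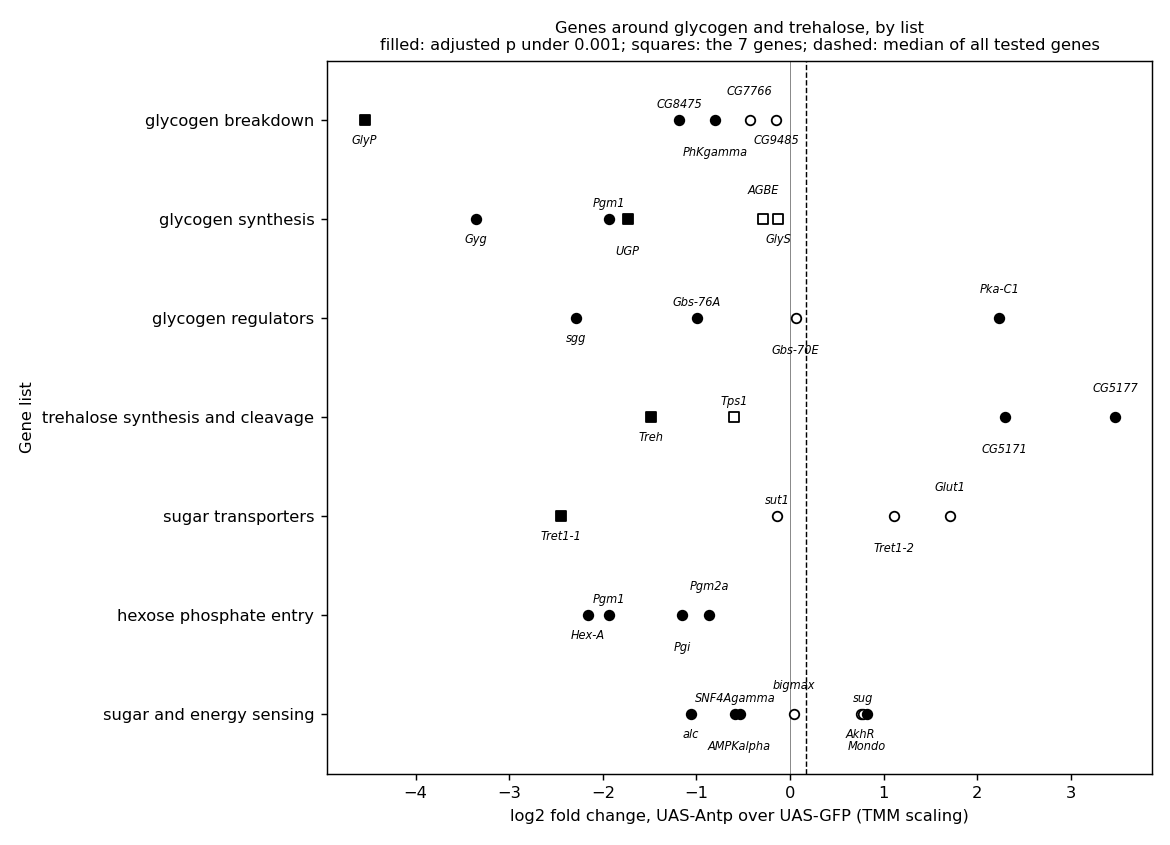
Log2 ratio of UAS-Antp to UAS-GFP (TMM scaling) for the tested genes of the 7 lists, 1 list per row, with filled symbols for an adjusted P under 0.001, squares for the 7 genes followed here and a dashed line at the median of all tested genes, 0.17. GlyP at -4.55 and CG5177 at 3.47 stand at the ends.

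Together the 7 lists hold 41 genes, of which 32 were tested, 4 rose, 16 fell and 12 did not pass, with a median of -0.56. Of all tested genes 16.3% were higher and 19.3% lower. Leaving aside the 7 genes followed here, 4 rose and 12 fell among 25 tested. Scaled by library totals 21 passed, 15 as higher and 6 as lower, beside 4971 higher and 685 lower among all 9546 tested genes. Because that scaling moves all genes nearly alike, which of them change sign follows from the size of their TMM value.

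The 6 general muscle markers (Mhc, Mef2, up, wupA, sls and bt) were lower in the same libraries, with log2 fold changes from -2.66 to -1.74, and their summed level ran from 33400 to 38700 CPM with UAS-Antp and from 161000 to 178000 CPM with UAS-GFP. Not all muscle genes were lower. In a comparison chosen after the values were seen, the actin genes Act79B, which the paper calls tubular-specific, and Act57B rose. Their log2 fold changes were 7.29 and 1.83 (edgeR, adjusted P = 2.74e-09 and 0.000898). The actin genes Act88F and Act87E fell, at -5.75 and -2.85 (edgeR, adjusted P = 4.91e-09 and 0.000308). Act5C and Act42A were at 0.04 and 0.16 and did not pass. Paramyosin, Prm, picked in the same way, was at 0.45 and did not pass (edgeR, adjusted P = 0.00797). In whole-muscle RNA, fewer muscle cells and less RNA of a gene per cell cannot be told apart. The counts of GlyP, Tret1-1, UGP and Treh were also set against the summed counts of the 6 general markers in each library, a comparison chosen after the values were seen. Mhc had the most counts of the 6, 2375063 to 2641178 with UAS-Antp and 3307969 to 4779428 with UAS-GFP. Its own log2 fold change was -2.29. These ratios therefore give each gene's change relative mainly to that of Mhc, and they do not measure muscle content.

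Relative to the muscle markers GlyP was lower in every UAS-Antp library, with a difference in log2 ratio of -2.29 (exact permutation P = 0.1). Tret1-1 overlapped (difference -0.21, exact permutation P = 0.4). Treh and UGP lay above the controls in every UAS-Antp library, with differences of 0.76 and 0.52 (exact permutation P = 0.1 each). The 5 markers of fibrillar flight muscle were lower too, with a summed level from 5220 to 6380 CPM with UAS-Antp and from 117000 to 137000 CPM with UAS-GFP.

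Markers of other cell types also differed. The 4 tracheal markers were lower, with a summed level from 143 to 214 CPM with UAS-Antp and from 657 to 706 CPM with UAS-GFP. The 3 glial markers were higher, with a summed level from 802 to 919 CPM with UAS-Antp and from 199 to 214 CPM with UAS-GFP. Gs2 had the most counts of the 3, 81239 to 91624 with UAS-Antp and 5800 to 6841 with UAS-GFP, so the sum is mainly Gs2. The log2 fold changes were 2.13 for Gs2, 1.32 for repo and 1.1 for moody. Of the myoblast markers 1 of 2 tested was higher, and 0 of the tested hemocyte, neuron and tendon markers passed. Their part in the changes of the sugar genes was not tested.

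Genes whose profile over the 6 libraries was closest to each gene were sought among 2709 genes with an average log2 CPM of at least 5, by Euclidean distance of mean-centred log2 CPM. For GlyP these were Mical and Arc1 at distances of 0.354 and 0.367, with log2 fold changes of -4.47 and -4.29. For Tret1-1 they were CG33506 and Dgp-1 (0.239 and 0.245), for Treh tapas and spoon (0.155 and 0.171), and for UGP Pif1B and Pif1A, both at 0.189 with equal log2 fold changes of -1.77. GlyS lay closest to Hcf and CG8963 (0.0781 and 0.0958), and AGBE to Rpt6 and if (0.0961 and 0.104). The low counts of Tps1 had no close counterpart, the nearest gene being at 2.22.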

How the data were processed

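The authors deposited counts of uniquely mapping reads per gene, by strand, on the exons of FlyBase release 6.42 (dm6), without normalization. The submitters' processing notes name featureCounts, Subread and DESeq2 1.34, and the aligner is not given in the sources used here. RNA was polyA-selected and amplified with 15 PCR cycles. Exon length and gene symbols (for 17582 genes, in a table that otherwise holds the authors' mean, log2 fold change, standard error, Wald statistic and P values, which were not used) came with the deposited files as other columns. Gene positions were the same in Ensembl release 115 for all 7 genes.

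Counts were filtered with filterByExpr (9546 genes), scaled with TMM and tested with edgeR 4.0.16 (quasi-likelihood test, R 4.3.3), with Benjamini-Hochberg adjustment over all tested genes and the study's threshold of 0.001. The standard error is the log2 fold change divided by the square root of F. The method was tested on simulated data. In each library 75.0% to 81.0% of genes with 5 to 50 counts had an even count, so reads may not be independent fragments, and errors cover these libraries only. The 7 genes and the lists were chosen with earlier results of these data known. Named are the 7 genes, the genes of the lists, the marker lists and the 2 closest profiles per gene. Also named are Antp and the genes that share exon bases with the 7. Prm and the actin genes outside the marker lists were picked after the values were seen. Alternatives were DESeq2 1.42.0, limma-voom (limma 3.58.1), other scalings and filters, leaving out each library, and a replicate block (added after seeing the data). Ratios to partners and muscle markers were added after seeing the data. Promoter motifs were not analysed here.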

Additional observations from a re-analysis of the deposited data

How the results depend on the processing

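Scaling by library totals gave the tested genes a median of 1.48 in place of 0.17 on the log2 scale and moved all genes nearly alike: 5656 genes passed in place of 3397 (4971 or 87.9% of them higher, against 45.8% with TMM), GlyS, AGBE and Tps1 changed sign (1.19, 1.03 and 0.72), and UGP and Treh no longer passed (-0.41 and -0.17). Less that median these 5 were nearly the same under both scalings, as such a common shift requires. At an adjusted P under 0.05, 5807 genes passed, and AGBE did too (-0.29). GlyP and Tret1-1 passed in all 17 alternatives, and Treh and UGP in 16 of 17. GlyS passed in 1, library totals, and Tps1 in none of the 16 with a value, and with CPM of at least 1 in 3 libraries it was not tested. Leaving out each library gave -4.67 to -4.44 for GlyP, -2.61 to -2.34 for Tret1-1, -1.86 to -1.69 for UGP, -1.59 to -1.40 for Treh and -1.65 to -0.07 for Tps1, and 17 to 18 of the listed genes passed. The ratio of Treh to Tps1 ran from -1.83 to 0.44 and is set by few counts. The labels number the UAS-GFP samples 1 to 3 and the UAS-Antp samples 4 to 6, so they pair none. The count table numbers both 1 to 3, and a replicate block on those numbers, added after seeing the data, gave 3058 genes called, 3018 of them also called without it, 18 of the listed genes (without SNF4Agamma and AMPKalpha), and the same calls for the 7 genes (GlyP -4.54, Tret1-1 -2.46, UGP -1.73, Treh -1.49, AGBE -0.28, GlyS -0.13, Tps1 -0.89). Same-numbered libraries did not deviate together (correlations 0, 0.01 and -0.03 over 9546 genes). Division by exon length cancels within a gene.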
